A study of Mus musculus with 13 samples.

Results

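Small nucleolar RNA (snoRNA) host transcripts were followed in mouse liver through 9 genes: Snhg5, Zfas1, 2410006H16Rik, Gas5, Snhg1, Snhg3, Snhg6, Snhg8 and Snhg12. They were picked by name with the group differences of these same arrays already known, so their differences are given here as a description and carry no test. Of the 39429 probes on the array, 12 bore one of these names, Zfas1 under its older name 1500012F01Rik. Of these, 10 probes passed the filter on dim spots, which asks a probe to be well above background throughout some group, and 8 of the 9 genes thereby entered the 19514 genes tested. The single probe of Snhg8 and a second probe of Snhg12 were well above background on 0 of 13 arrays.

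The arrays held total liver RNA of female C57BL6 mice, 12 weeks old, in 3 groups that the labels describe as biological replicates. In the HFHS group (5 arrays) the mice ate the diet labelled HFHS, a high-fat high-sucrose diet, and received vehicle. In the pollutant group (5 arrays) they ate the standard diet, labelled ST, with a mixture of 4 pollutants, and in the ST vehicle group (3 arrays) the standard diet with vehicle. The names and doses of the pollutants and the composition of the diets are not given in the sources used here, and where the series text leaves the diet of the pollutant mice open, the sample labels were followed. Arrays were run on 5 slides: each held an HFHS and a pollutant array, and an ST vehicle array lay on slides 1, 2 and 5 as well. All 10 hepatocyte markers, albumin (Alb) and transthyretin (Ttr) among them, were well above background on each of the 13 arrays. That the samples came from separate animals is taken from the label word biological; p-values measure the spread between these samples.

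A snoRNA host gene makes a spliced RNA whose introns are processed into snoRNAs, small nucleolar RNAs most of which guide methylation or pseudouridylation of ribosomal RNA. In the non-coding hosts the spliced exons encode no conserved protein, and many of these RNAs are degraded by nonsense-mediated decay when ribosomes engage them. Many of these genes start transcription at a pyrimidine stretch, the terminal oligopyrimidine (TOP) start that they share with ribosomal protein and translation factor genes. Gas5 owes its name, growth arrest specific, to its accumulation in cells that stop growing. The probes were designed on the host transcripts and do not measure the snoRNAs.

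The RefSeq gene table places 8 snoRNA genes inside Gas5, of which Snord47 has a snoRNA symbol, and 8 inside Snhg1, of which Snord22 has one. Snhg12 holds 4 (Snora16a, Snora44, Snora61 and Snord99), Zfas1 holds 3 with Snord12 among them, and 2410006H16Rik holds 3 (Snord49a, Snord49b and Snord65). Snhg3 holds 2 (Snora73a and Snora73b), Snhg5 holds 2 without a snoRNA symbol, Snhg6 holds 1 (Snord87) and Snhg8 holds 1 (Snora24). Host genes thus differ widely in how many snoRNAs they carry, and these belong to both the box C/D class (Snord), known mostly for methylation guides, and the box H/ACA class (Snora), known mostly for pseudouridylation guides.

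The starts of these genes are shown because the TOP start is the feature for which the family is known. RefSeq's promoter table (GRCm38.p6) listed 8 of the 9 genes, with 2 starts for Gas5. Each window below runs from 30 bases before the annotated start to 30 bases from it onward, so that the first transcribed base is the first of the last 30. Capitals mark the longest run of C and T that covers the start or begins within 10 bases of it.
Snhg5 (chr9:88522868-88522927, minus strand): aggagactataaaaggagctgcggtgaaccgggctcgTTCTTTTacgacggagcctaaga
Zfas1 (chr2:167062904-167062963, plus strand): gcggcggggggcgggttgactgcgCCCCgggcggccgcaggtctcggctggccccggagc
2410006H16Rik (chr11:62602847-62602906, plus strand): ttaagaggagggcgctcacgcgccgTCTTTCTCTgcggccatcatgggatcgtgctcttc
Gas5, start 1 (chr1:161034571-161034630, plus strand): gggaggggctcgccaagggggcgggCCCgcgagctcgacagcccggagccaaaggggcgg
Gas5, start 2 (chr1:161035136-161035195, plus strand): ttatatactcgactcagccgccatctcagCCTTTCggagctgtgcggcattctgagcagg
Snhg1 (chr19:8723457-8723516, plus strand): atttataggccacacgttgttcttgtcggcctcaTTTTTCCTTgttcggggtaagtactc
Snhg3 (chr4:132353657-132353716, minus strand): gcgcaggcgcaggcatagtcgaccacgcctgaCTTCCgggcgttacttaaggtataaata
Snhg8 (chr3:123508307-123508366, minus strand): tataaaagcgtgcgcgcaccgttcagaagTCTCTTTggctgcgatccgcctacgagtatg
Snhg12 (chr4:132308648-132308707, plus strand): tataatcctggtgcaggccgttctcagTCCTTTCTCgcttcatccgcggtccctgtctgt

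A run of at least 5 C or T letters covered or began within 10 bases of 7 of these 9 starts, in 7 of the 8 genes, against 38.3% of all 32851 promoters in the table. In Snhg5, Snhg1 and Snhg3 it did not cover the start but began 7, 4 and 2 bases after the first transcribed base. The runs were longest, with 9 letters, in 2410006H16Rik, Snhg1 and Snhg12, while the first start of Gas5 had 3 letters and that of Zfas1 had 4. A run of that length whose own first letter is C was found for 2 of the 9 (Gas5 start 2 and Snhg3), against 21.6% of all promoters. That letter need not be the first transcribed base, where the classical TOP start has its C, so classical TOP starts were not counted. CACGTG, the letters of the E-box, occurred in 0 of the 9 stretches of 250 bases before and 50 after the start, against 7.15% of all. TATAAA on either strand occurred in 4 of the 9, against 13.6%. On the sense strand between 40 and 15 bases before the start it occurred in 2 of the 9 (Snhg5 and Snhg8), against 1.99%. These letter matches describe the annotated windows and show no use of the starts in liver.

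Levels below are log2 values of the processed signal minus the 75th percentile of the same array, so that 0 is the brightness of that percentile, and a difference of 1 is a doubling in the first-named group. Each probe has its own brightness, and levels of different probes are not set against each other. Differences come from 1 limma model over all 13 arrays and are given with their standard error. A gene counts as called at a Benjamini-Hochberg adjusted p under 0.05 over all 19514 genes.

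The host transcripts were highest in the livers of pollutant mice and lower in HFHS livers than in those of pollutant mice. On all 8 gene probes the 5 HFHS arrays lay below the 5 pollutant arrays without overlap, and the 5 pollutant arrays above the 3 ST vehicle arrays without overlap. Between pollutants and ST vehicle the 8 log2 differences ran from 0.45 to 0.86 with a median of 0.67, beside a median of -0.01 over all genes tested. Between HFHS and pollutants they ran from -1.24 to -0.50 with a median of -0.85, beside -0.0047 over all genes, and between HFHS and ST vehicle from -0.54 to -0.01 with a median of -0.20, beside -0.02. Since the tissue was measured in bulk, a change in the RNA per cell and a change in the cells that make it cannot be told apart.

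Of the 8 genes, 5 were called higher in pollutants than in ST vehicle (Snhg5, Zfas1, 2410006H16Rik, Snhg3 and Snhg12), where 0.543% of all genes were called higher. Between HFHS and pollutants all 8 were called lower, where 2.3% of all genes were. Between HFHS and ST vehicle 0 of the 8 were called by limma (lower: 0.451% of all genes, either way: 0.687%). At an unadjusted p under 0.05 there were 2, beside 2356 of all 19514 genes, and the groups of Snhg5 and Snhg1 did not overlap. Groups were separate in the same direction for 3.93% of all genes between pollutants and ST vehicle, 4.19% between HFHS and pollutants and 5.33% between HFHS and ST vehicle. The genes were chosen for these contrasts, and the counts are no test of them. The 5 calls between pollutants and ST vehicle were 2 with the slide as a block, 1 with median scaling and 0 with normexp background correction. They were 1 without any of ST vehicle replicates 1, 2 and 3 or pollutant replicates 3, 4 and 5, 2 without pollutant replicate 1, and 3 without pollutant replicate 2 or HFHS replicate 1, 2 or 5. The 8 between HFHS and pollutants were 6 with normexp, 7 with median scaling and 7 with a gene's probes averaged.

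**Figure D1:**
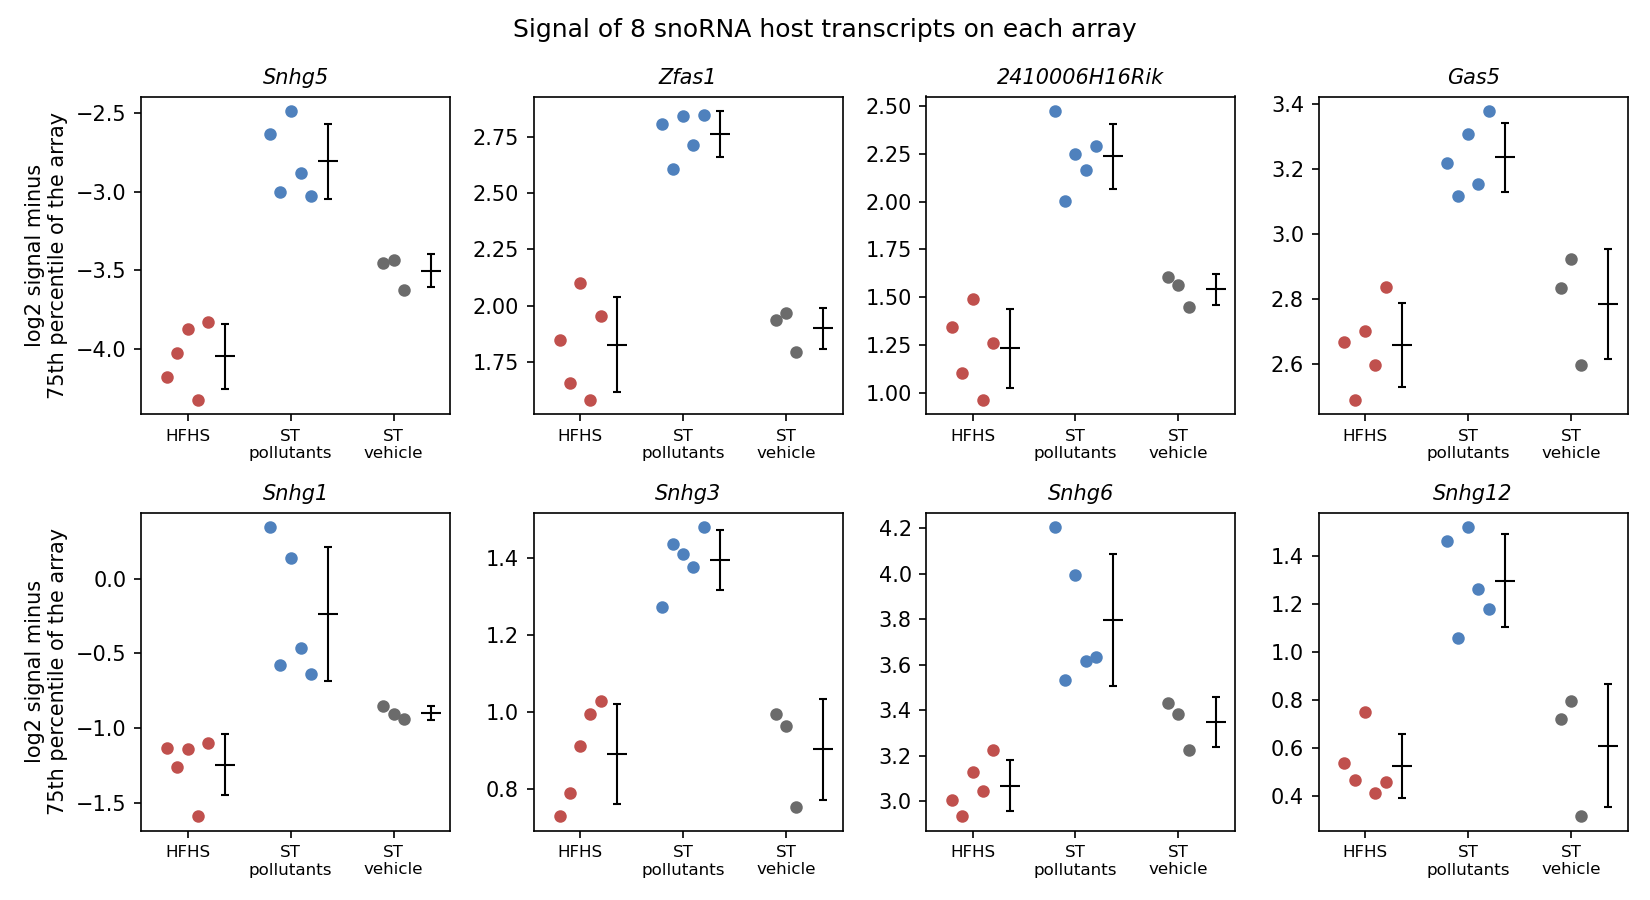
Level of 8 snoRNA host transcripts (log2 processed signal minus the 75th percentile of the array, vertical axes differ by gene) on each of the 13 arrays, with bars for the mean ± SD of 5 HFHS, 5 pollutant and 3 ST vehicle arrays. In every panel the pollutant points lie above all points of the other groups, as for Zfas1 with at most 2.10 in HFHS, 2.61 to 2.85 in pollutants and at most 1.97 in ST vehicle.

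Zfas1, a host named as antisense to the zinc finger gene Znfx1, showed the largest of the 8 differences between pollutants and ST vehicle. Its probe of 60 bases spans mm9 chr2:166889193-166890683 and so takes in an intron between its parts. Its levels in HFHS replicates 1 to 5 were 1.85, 1.66, 2.10, 1.58 and 1.95. In pollutant replicates 1 to 5 they were 2.80, 2.61, 2.84, 2.71 and 2.85, against 1.94, 1.97 and 1.79 in ST vehicle. The 5 pollutant arrays lay close together and above all others, while HFHS arrays spread around the ST vehicle ones. The difference was 0.86 ± 0.12 between pollutants and ST vehicle (1.82-fold), -0.93 ± 0.10 between HFHS and pollutants (1.91-fold lower) and -0.07 ± 0.12 between HFHS and ST vehicle, with a 95% interval of -0.33 to 0.18.

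Snhg5, host of snoRNAs without a symbol in the table, was read by a probe at mm9 chr9:88417150-88417209 on the minus strand. It had levels of -4.18, -4.03, -3.87, -4.32 and -3.83 on the HFHS arrays. Pollutant arrays gave -2.63, -3.0, -2.49, -2.88 and -3.03, and ST vehicle arrays -3.45, -3.43 and -3.62. All HFHS arrays lay below all ST vehicle arrays, and these below all pollutant arrays. The difference was -1.24 ± 0.13 between HFHS and pollutants (2.36-fold lower), 0.70 ± 0.15 between pollutants and ST vehicle (1.62-fold) and -0.54 ± 0.15 between HFHS and ST vehicle (1.46-fold lower). The Snhg5 spot was close to background: it read 75.2 to 200.3 intensity units on a local background of 21 to 35, or 2.15 to 7.71 times background, whereas the other 7 gene probes read at least 11 times background. With normexp background correction the same 3 differences were -0.17, 0.42 and 0.24, and the authors' deposited table of normalized values gave -0.55, 0.33 and -0.22. The largest of the 8 differences between HFHS and pollutants was thus that of Snhg5 here but not in those settings, where 2410006H16Rik was at -1.06 and -0.98.

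Snhg1, host of the box C/D snoRNA Snord22 (probe at mm9 chr19:8798913-8798972), shared the order of the groups with Snhg5. HFHS arrays had levels of -1.13, -1.26, -1.14, -1.59 and -1.1, pollutant arrays 0.34, -0.58, 0.14, -0.46 and -0.64, and ST vehicle arrays -0.85, -0.91 and -0.94. The groups did not overlap, but pollutant replicates 1 and 3 stood clear of the other 3 pollutant arrays. The difference was -1.01 ± 0.19 between HFHS and pollutants (2.01-fold lower), 0.66 ± 0.21 between pollutants and ST vehicle and -0.34 ± 0.21 between HFHS and ST vehicle. Only 12 of all genes (0.0615%) had the 3 groups separate in this order, Snhg5 and Snhg1 among them.

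2410006H16Rik, a host of methylation guides named only by its clone (probe at mm9 chr11:62418244-62418303), had levels of 1.35, 1.1, 1.49, 0.96 and 1.26 on the HFHS arrays, 2.47, 2.01, 2.25, 2.16 and 2.29 on the pollutant arrays and 1.61, 1.57 and 1.45 on the ST vehicle arrays. One HFHS array, replicate 3, reached into the ST vehicle range, and the pollutant arrays were clear of both. The difference was -1.0 ± 0.11 between HFHS and pollutants (2.0-fold lower), 0.69 ± 0.13 between pollutants and ST vehicle (1.62-fold) and -0.31 ± 0.13 between HFHS and ST vehicle, with a 95% interval of -0.59 to -0.03.

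Snhg12, whose introns hold snoRNAs of both classes (probe at mm9 chr4:131866864-131866922), had levels of 0.54, 0.47, 0.75, 0.41 and 0.46 on the HFHS arrays, 1.46, 1.06, 1.52, 1.26 and 1.18 on the pollutant arrays and 0.72, 0.79 and 0.32 on the ST vehicle arrays. ST vehicle replicate 3 lay below every HFHS array, so that these groups overlapped. The difference was 0.69 ± 0.14 between pollutants and ST vehicle (1.61-fold), -0.77 ± 0.12 between HFHS and pollutants (1.71-fold lower) and -0.09 ± 0.14 between HFHS and ST vehicle.

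Snhg3, host of the box H/ACA snoRNAs Snora73a and Snora73b (probe at mm9 chr4:131908005-131908064), had the most even pollutant arrays of the 8. The HFHS arrays gave 0.73, 0.79, 0.91, 0.99 and 1.03. The pollutant arrays gave 1.27, 1.44, 1.41, 1.38 and 1.48 (mean 1.39 ± 0.08 SD, n = 5), against 0.99, 0.96 and 0.75 in ST vehicle. The HFHS range covered the ST vehicle range from end to end. The difference was 0.49 ± 0.09 between pollutants and ST vehicle (1.41-fold), -0.50 ± 0.08 between HFHS and pollutants (1.42-fold lower) and -0.01 ± 0.09 between HFHS and ST vehicle, with a 95% interval of -0.21 to 0.19.

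Snhg6, host of the guide Snord87 (probe at mm9 chr1:9932175-9932234), had levels of 3.01, 2.94, 3.13, 3.05 and 3.23 on the HFHS arrays, 4.20, 3.53, 4.00, 3.62 and 3.63 on the pollutant arrays and 3.43, 3.38 and 3.23 on the ST vehicle arrays. As with Snhg1, replicates 1 and 3 were the highest of the pollutant arrays. The same 2 arrays were also the highest of their group in Snhg5 and Snhg12, but not in Zfas1, Gas5, Snhg3 or 2410006H16Rik. The difference was -0.73 ± 0.13 between HFHS and pollutants (1.66-fold lower), 0.45 ± 0.15 between pollutants and ST vehicle (1.36-fold) and -0.28 ± 0.15 between HFHS and ST vehicle.

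**Figure D2:**
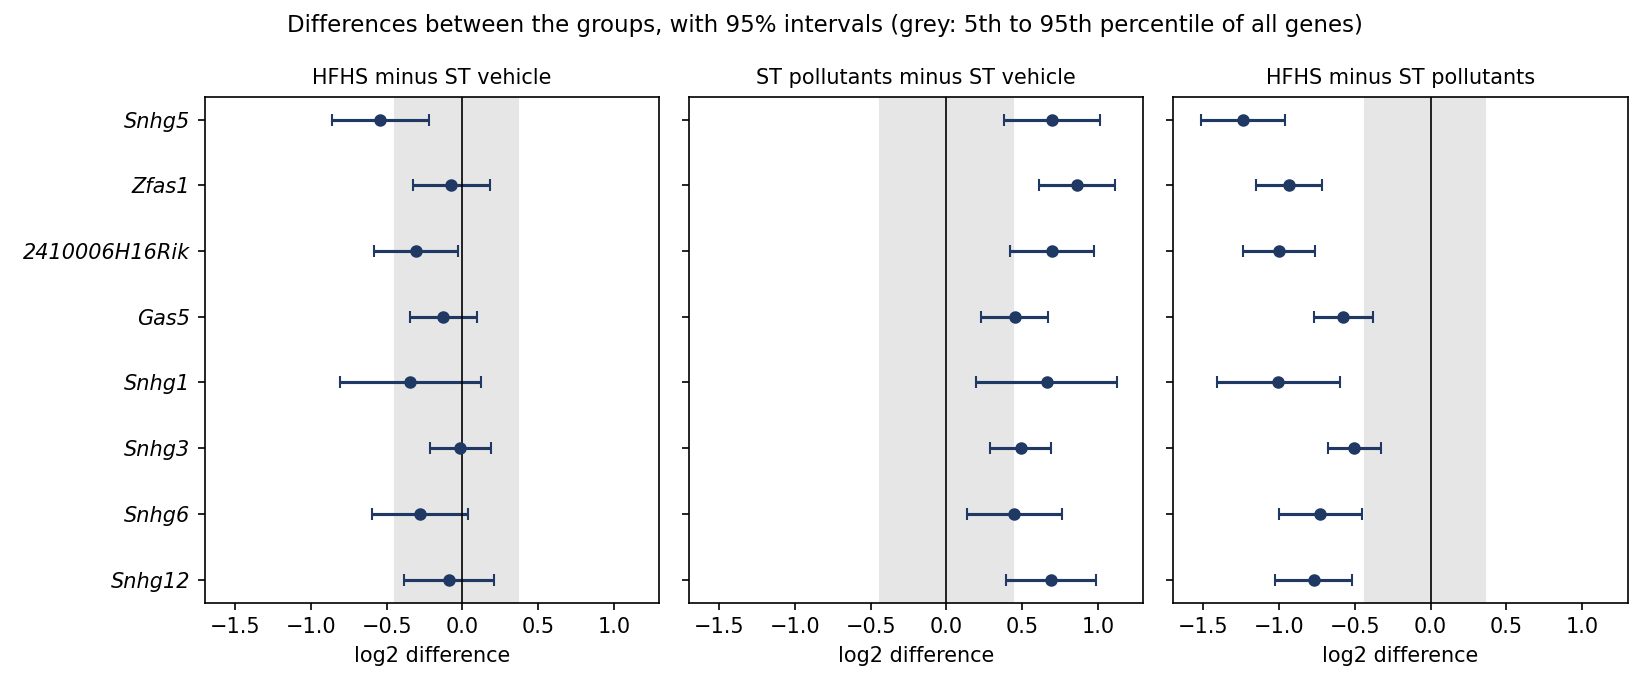
Log2 difference of each of the 8 host transcripts in the 3 comparisons (points) with 95% intervals from the limma model (bars), over a grey band from the 5th to the 95th percentile of all 19514 genes. All 8 intervals lie above 0 between pollutants and ST vehicle and below 0 between HFHS and pollutants, while between HFHS and ST vehicle 6 of 8 include 0.

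Gas5 was measured by 3 probes along its gene, all annotated to the same RefSeq RNA, and the groups were separate on 1 of them. Their sequences are shown, because the readout of this gene depended on which of them was used, with their positions on mm9 (chromosome 1, plus strand) in the order of transcription.
Gas5, 5′-most probe (chr1:162966369-162966428): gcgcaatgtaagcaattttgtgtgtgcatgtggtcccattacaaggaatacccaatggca
Gas5, middle probe (chr1:162967350-162967409): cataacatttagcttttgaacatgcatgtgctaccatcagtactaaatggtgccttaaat
Gas5, 3′-most probe (chr1:162968608-162968667): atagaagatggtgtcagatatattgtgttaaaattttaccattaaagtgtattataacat
The 3′-most probe, the brightest of them and the one that stands for the gene, had levels of 2.67, 2.49, 2.70, 2.60 and 2.84 on the HFHS arrays, 3.22, 3.12, 3.31, 3.16 and 3.38 on the pollutant arrays and 2.84, 2.92 and 2.60 on the ST vehicle arrays. On it the pollutant arrays were separate from both other groups, with a difference of 0.45 ± 0.10 between pollutants and ST vehicle (1.37-fold) and of -0.58 ± 0.09 between HFHS and pollutants (1.49-fold lower). Between HFHS and ST vehicle it was -0.13 ± 0.10, and these groups overlapped. The 5′-most probe gave -1.18 to -0.97 in HFHS, -1.22 to -0.60 in pollutants and -1.06 to -0.76 in ST vehicle, and the middle probe -1.52 to -1.18, -1.46 to -1.09 and -1.33 to -1.09. On both the groups overlapped in all 3 comparisons. Their differences were 0.03 ± 0.14 and -0.07 ± 0.10 between pollutants and ST vehicle, and -0.21 ± 0.12 and -0.12 ± 0.09 between HFHS and pollutants, with 95% intervals of -0.27 to 0.33, -0.29 to 0.16, -0.47 to 0.05 and -0.32 to 0.07. The intervals between pollutants and ST vehicle reach 0.33 and 0.16, below the 0.45 of the 3′-most probe. The 3′-most probe's own interval, 0.23 to 0.67, overlaps that of the 5′-most probe but not that of the middle one. The difference between probes was not tested. Between HFHS and ST vehicle the 3 probes gave like values, -0.18, -0.19 and -0.13 in the order of transcription. When the 3 probes were averaged, the Gas5 differences were 0.14 between pollutants and ST vehicle and -0.30 between HFHS and pollutants, and Gas5 was no longer called in that comparison (adjusted p = 0.0686 by limma).

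**Figure D3:**
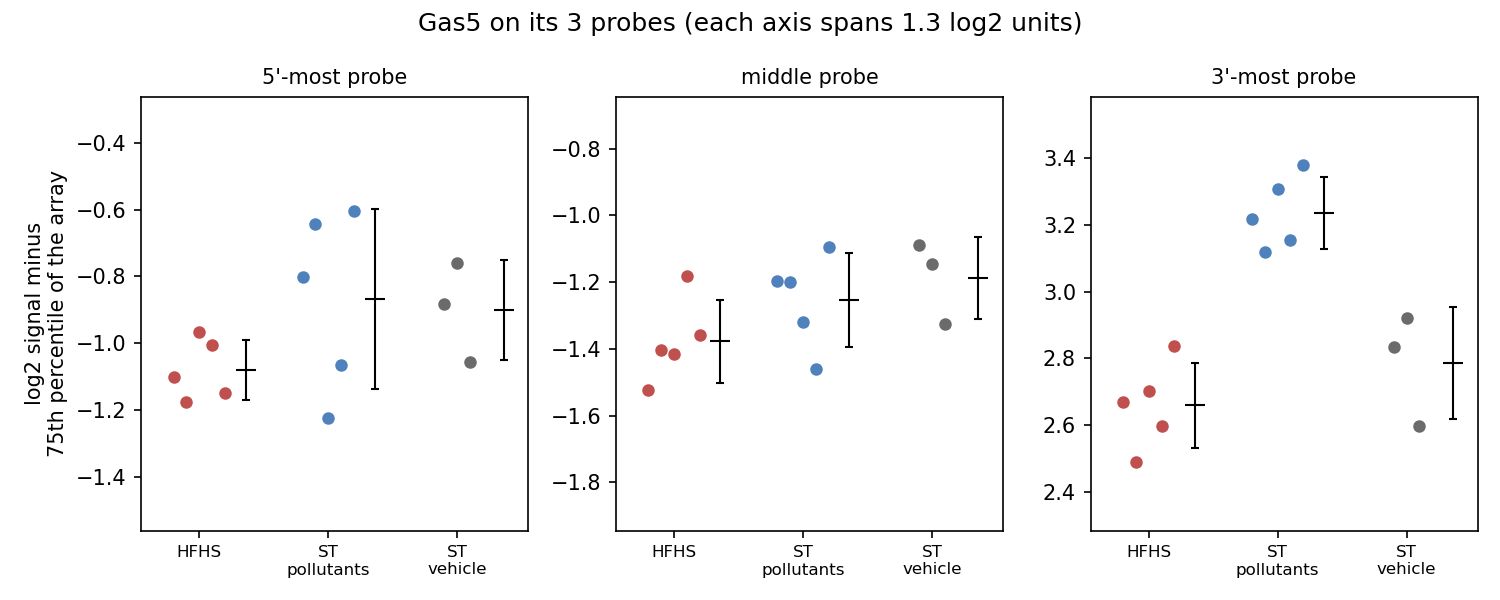
Level of Gas5 (log2 processed signal minus the 75th percentile of the array) on its 5′-most, middle and 3′-most probe for each HFHS, pollutant and ST vehicle array, with bars for the mean ± SD (n = 5, 5 and 3), each axis spanning the same range. The pollutant arrays are separate from the other groups only on the 3′-most probe, at 3.12 to 3.38.

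Snhg8 and the second Snhg12 probe were not well above background on the arrays. Their signals lay at -7.97 to -7.01 in HFHS, -7.52 to -7.16 in pollutants and -7.55 to -7.28 in ST vehicle for Snhg8, and at -7.95 to -7.02, -7.42 to -7.09 and -7.50 to -7.18 for the Snhg12 probe. Both probes were designed on expressed sequence tags, and the Snhg12 one carries no genome position in the files. They were left out of the counts above.

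On the 8 gene probes the pollutant arrays overlapped neither other group, so their differences had to keep their direction within slides. The slides therefore add the size of these differences and no check of their direction. Each slide held 1 array of a group, so that a difference within it has no error of its own. In the pollutant and ST vehicle arrays all 8 genes were above 0 within each of the 3 slides that held both groups, from 0.15 (Snhg6, slide 2) to 1.20 (Snhg1, slide 1). Between HFHS and pollutants all 8 were below 0 within each of the 5 slides, from -1.55 (Snhg5, slide 1) to -0.38 (Snhg3, slide 4). Gas5 ran from -0.63 to -0.54 there on its 3′-most probe, but from -0.55 to 0.26 on the 5′-most (above 0 in 2 slides) and from -0.33 to 0.28 on the middle one (above 0 in 1). Between HFHS and ST vehicle 3 genes were below 0 in all 3 slides (Snhg5, Snhg1 and 2410006H16Rik), and the other 5 were above 0 in 1 slide each.

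**Figure D4:**
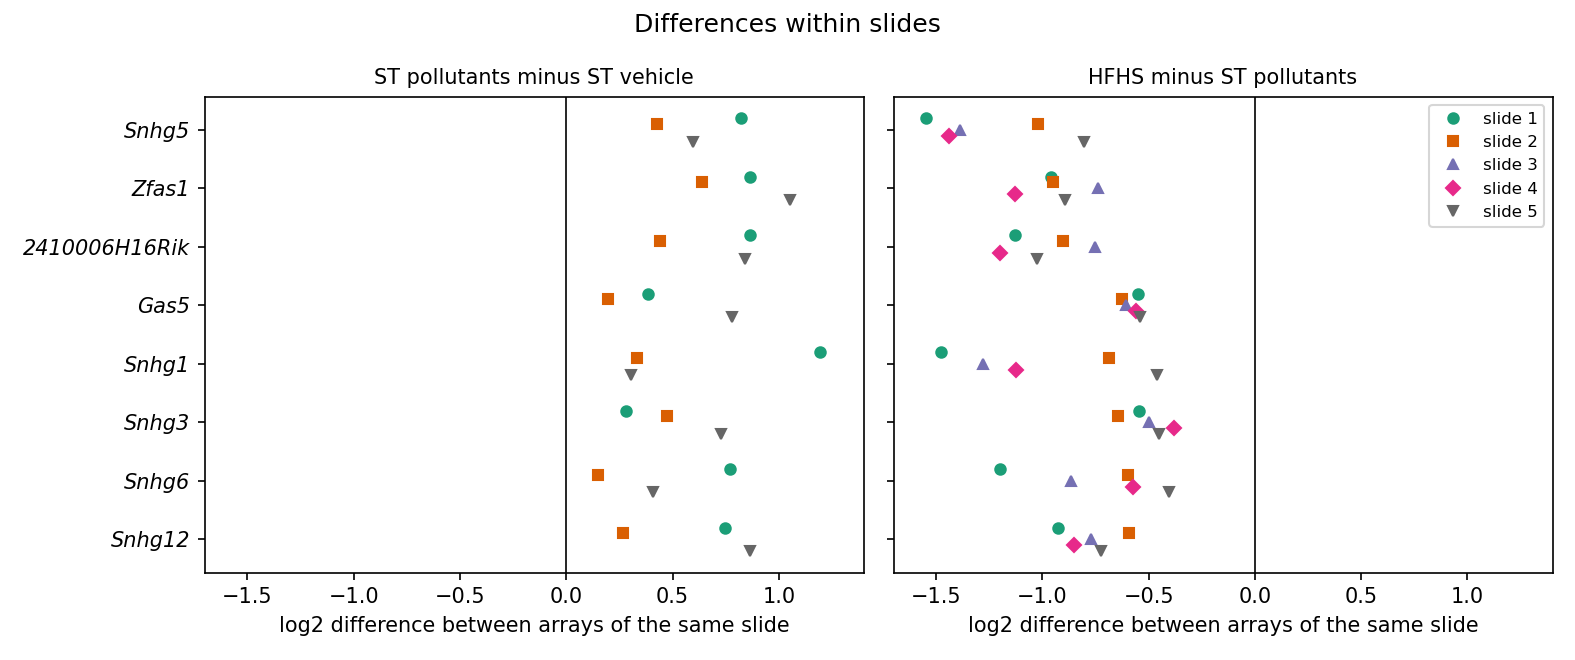
Log2 difference of the 8 host transcripts between arrays of the same slide, 3 slides for pollutants minus ST vehicle and 5 for HFHS minus pollutants, with a marker for each slide. All markers lie above 0 in the first panel (0.15 to 1.20) and below 0 in the second (-1.55 to -0.38), as they must for groups without overlap.

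HFHS replicates 3, 4 and 5 were high in transcripts of pancreatic acinar cells. The 10 acinar markers measured of 13 listed had means of -3.07 to 6.88 over the HFHS arrays, -3.38 to -1.79 over the pollutant arrays and -3.20 to -2.68 over the ST vehicle arrays. Without HFHS replicates 3 to 5 the 8 differences between HFHS and pollutants were -1.30 to -0.64, with 5 of 8 called. Without the arrays of slide 1 they were -1.16 to -0.49 and those between pollutants and ST vehicle 0.39 to 0.87, with 0 of 8 called in either comparison and all 8 at an unadjusted p under 0.05. That reduced set of 10 arrays called 1 and 3 of all genes, with 2834 and 2079 at an unadjusted p under 0.05.

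Among the other marker lists, 1 separated pollutants from ST vehicle: the 3 erythroid markers measured of 4 had means of 3.48 to 4.16 on HFHS arrays, 3.99 to 4.30 on pollutant arrays and 3.29 to 3.80 on ST vehicle arrays. The 4 cholangiocyte markers measured of 5 had means of -2.78 to -2.43 on HFHS arrays and -2.22 to -1.89 on ST vehicle arrays, without overlap. Groups overlapped for hepatocytes, macrophages, T cells, B cells, endothelium, muscle and fat, and 0 markers were called. The part of these cells in the host transcripts' differences was not tested.

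Other non-coding snoRNA hosts gave 1 call in all. Of 13 further hosts listed by name, 8 were measured: Snhg7, Snhg10, Snhg11, Snhg15, Snhg16, Snhg17, Snhg18 and Dancr. Snhg16 was at 0.13 in HFHS and 0.79 in pollutants (-0.66 ± 0.15, adjusted p = 0.0293 by limma). It was the 1 called gene of the 8, where 3.87% of all genes were called in either direction. Its levels were -0.08, 0.10, 0.12, 0.22 and 0.31 in HFHS, 1.22, 0.65, 1.03, 0.45 and 0.60 in pollutants and 0.28, 0.23 and -0.06 in ST vehicle, again with pollutant replicates 1 and 3 on top. The call held under 12 of 27 other settings, with adjusted p between 0.0222 and 0.133 by limma. Among others, it was lost without HFHS replicate 1, 2 or 3 and without pollutant replicate 3. It was also lost without HFHS replicates 3 to 5 together and without slide 1. These levels are those of its brightest probe. Averaged over its kept probes the difference was -0.38 (adjusted p = 0.0829 by limma), and the call was lost.

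In pollutants against ST vehicle limma called 0 of these 8 hosts, where 0.984% of all genes were called, and 3 had an unadjusted p under 0.05. Snhg16 (0.64 ± 0.17, adjusted p = 0.104) and Snhg7 (0.53 ± 0.14, adjusted p = 0.106) had pollutant arrays above all ST vehicle arrays. Snhg17 had pollutant arrays below all ST vehicle arrays, with -0.35, 0.53, 0.06, 0.79 and 0.53 in pollutants, against 1.18, 0.84 and 0.92 in ST vehicle (-0.67 ± 0.30, adjusted p = 0.392); 4.4% of all genes had pollutant arrays below ST vehicle arrays without overlap. Snhg11 had the largest difference between HFHS and pollutants and the widest error (-1.39 ± 0.44, adjusted p = 0.108). Snhg15 (0.13 ± 0.07), Snhg10 (-0.05 ± 0.09), Snhg18 (-0.06 ± 0.19) and Dancr (-0.15 ± 0.12) differed by less than 0.2 between those groups. The median of the 8 was 0.16 between pollutants and ST vehicle and -0.10 between HFHS and pollutants.

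Among protein-coding hosts, whose introns hold snoRNAs beside a translated message, 4 of 29 were called between HFHS and pollutants, where 3.87% of all genes were called in either direction. All 4 were lower in HFHS than in pollutants. Among them were Taf1d, a subunit of the RNA polymerase I selectivity factor (-0.55 ± 0.10, adjusted p = 0.0102 by limma), Ncl, which encodes nucleolin (-0.42 ± 0.10, adjusted p = 0.0376), and the elongation factor Eef2 (-0.38 ± 0.08, adjusted p = 0.0269). A further 23 of the 29 were below 0 without passing, and the median was -0.20. Many of the 29, such as Rpl3 and Rps2, are also in the ribosomal protein list below. Eef2, Eef1b2, Rack1 and Tpt1 are also among the TOP translation factors, so these lists are not independent of each other. With median scaling, without HFHS replicates 3 to 5 and without slide 1, 0 of the 29 were called. The count was 1 without HFHS replicate 1, 2 or 5 or pollutant replicate 3, 4 or 5, and 2 without pollutant replicate 1. For pollutants against ST vehicle 0 were called (7 at an unadjusted p under 0.05) and the median was 0.08, with Taf1d at 0.44 ± 0.11 (adjusted p = 0.0994), Eif4a2 at 0.45 ± 0.12 (adjusted p = 0.104) and Hspa8 at 0.44 ± 0.13 (adjusted p = 0.155). Between HFHS and ST vehicle 0 were called (4 at an unadjusted p under 0.05) and the median was -0.11.

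Ribosomal protein and translation factor genes are those best known for TOP starts. Of 77 ribosomal protein genes, 2 were called lower in HFHS than in pollutants, a share near the 2.3% of all genes called lower. Rpl27a was among them (-0.29 ± 0.07, adjusted p = 0.0403 by limma). All 77 differences were below 0, with a median of -0.18. That count was 62 of 77 after quantile normalization, 69 of 77 in the authors' deposited table and 77 of 77 with both normexp corrections and median scaling, the medians running from -0.32 to -0.07. Rpl27a was called under neither quantile normalization nor median scaling. In pollutants against ST vehicle 0 ribosomal protein genes were called (4 at an unadjusted p under 0.05) and the median was 0.07. Against ST vehicle, HFHS gave 0 calls (12 at an unadjusted p under 0.05) and a median of -0.11. Of 15 TOP translation factors, Eef2 alone was called lower in HFHS than in pollutants, the same call as among the protein-coding hosts. All 15 were below 0 (13 to 15 over the scalings) and the median was -0.19. In pollutants against ST vehicle 0 of the 15 were called (5 at an unadjusted p under 0.05), 14 were above 0 and the median was 0.15. The host transcripts' median was -0.85 between HFHS and pollutants.

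Genes for the proteins that bind snoRNAs or degrade these hosts gave 1 call. Of 19 snoRNP proteins and assembly factors, 0 were called by limma in any comparison, with 0, 1 and 3 at an unadjusted p under 0.05, and the medians were 0.02 (HFHS against ST vehicle), 0.04 (pollutants against ST vehicle) and -0.05 (HFHS against pollutants). Those of smallest p in the last were the core protein Nop56 (-0.23 ± 0.08, adjusted p = 0.137) and the assembly factors Znhit3 (0.27 ± 0.11) and Nufip1 (0.24 ± 0.10). Of 20 nonsense-mediated decay factors, the helicase gene Dhx34 was called higher in HFHS than in pollutants (0.41 ± 0.10, adjusted p = 0.0464 by limma), where 1.57% of all genes were called higher. Its groups overlapped, and it lost the call under all scalings tried but quantile normalization. Against ST vehicle, pollutants gave 0 called decay factors (2 at an unadjusted p under 0.05).

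The lists for the growth pathway mTORC1 with Myc and for the amino acid response gave no call. Of 18 genes of the mTORC1 pathway and Myc, limma called 0 in any comparison, and between HFHS and pollutants 6 had an unadjusted p under 0.05 (1 was called there without HFHS replicate 1 or pollutant replicate 1). In that comparison Mlst8 was at 0.28 ± 0.08 (adjusted p = 0.0995), Eif4ebp2 at 0.26 ± 0.09 (adjusted p = 0.149) and Ddit4, an inhibitor of the pathway, at -0.63 ± 0.24 (adjusted p = 0.185). Of 15 measured genes of the ATF4 and amino acid response, 0 were called, with 2 (HFHS against ST vehicle), 1 (pollutants against ST vehicle) and 1 (HFHS against pollutants) at an unadjusted p under 0.05, and with Nupr1 at 1.41 ± 0.57 (adjusted p = 0.204) between HFHS and pollutants and Gadd45a at -0.63 ± 0.23 (adjusted p = 0.251) between pollutants and ST vehicle. At an unadjusted p under 0.05, 3569 of all 19514 genes passed between HFHS and pollutants and 2371 between pollutants and ST vehicle. Between HFHS and ST vehicle 2356 passed.

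Of 22 protein-coding genes that overlap the named hosts, Snhg8 included, or lie next to them, 20 were tested. In any comparison limma called 0 of them. The count at an unadjusted p under 0.05 was 5 between HFHS and ST vehicle, 2 between pollutants and ST vehicle and 5 between HFHS and pollutants. Over all 19514 genes these counts were 2356, 2371 and 3569. In pollutants against ST vehicle they ran from -0.35 to 0.50 with a median of 0.05, and between HFHS and pollutants from -0.64 to 0.31 with a median of -0.08. Znfx1, which overlaps Zfas1, was at 0.21 ± 0.12 between pollutants and ST vehicle, against 0.86 for Zfas1. Zbtb37, which overlaps Gas5, was at -0.35 ± 0.11. Slc3a2 and Wdr74, on either side of Snhg1, were at 0.04 ± 0.10 and -0.05 ± 0.12, and Rcc1, beside Snhg3, was at 0.06 ± 0.08. Whether any of these differs from its host was not tested.

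**Figure D5:**
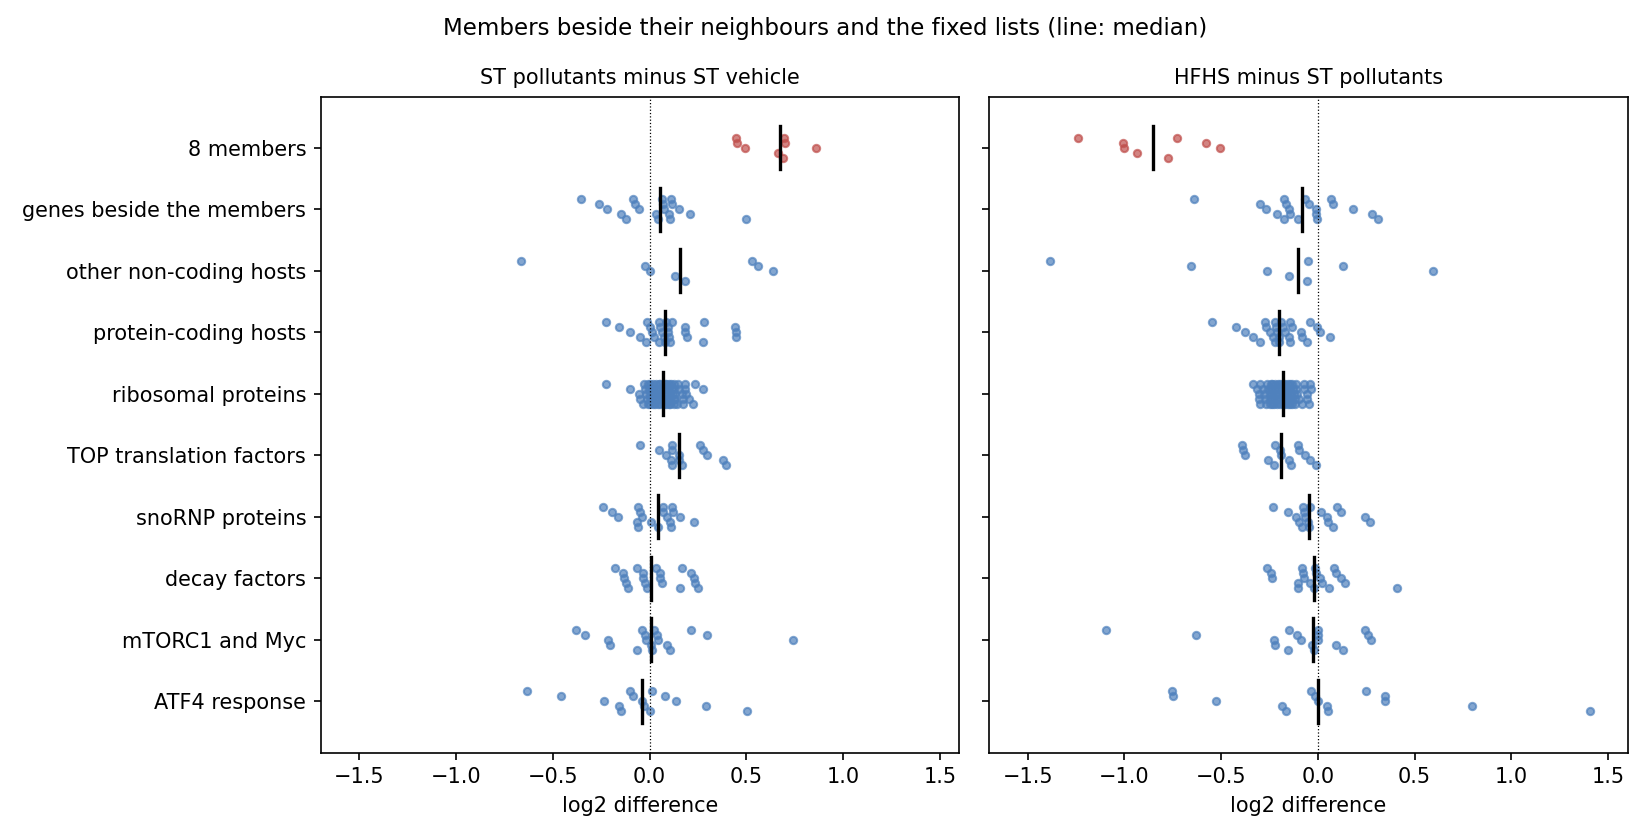
Log2 differences between pollutants and ST vehicle and between HFHS and pollutants, with a line at each median. Red marks the 8 host transcripts, and blue the genes of the other lists and 20 genes beside the named hosts, Snhg8 included. The host transcripts lie at 0.45 to 0.86 and -1.24 to -0.50, and the ribosomal protein genes cluster at medians of 0.07 and -0.18.

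A pair of snoRNAs had probes of their own on the array, though neither lies in these hosts. Snora74a ranged from -2.70 to -1.95 in HFHS, -2.33 to -1.82 in pollutants and -2.45 to -2.03 in ST vehicle, and Snora47 from -0.83 to 0.20, -1.60 to -0.31 and -0.87 to -0.0029. The groups overlapped, and the differences between pollutants and ST vehicle were 0.09 ± 0.18 and -0.09 ± 0.32 (adjusted p = 0.937 and 0.969).

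Likeness to Snhg5 was ranked over all other genes by Pearson's r over the 13 arrays, which share the 3 groups and their scaling. Among genes with a symbol other than a clone name, those most like it were Ralgapa2, a subunit of a Ral GTPase-activating complex (r = 0.95), Snhg6 (0.95), Snhg1 (0.94), the zinc finger gene Zfp358 (0.94), Kyat3, a kynurenine aminotransferase (0.93), and Fam117b (0.93). Of all 19513 genes ranked, 2410006H16Rik, which has a clone name, stood 3rd (r = 0.95), Snhg6 4th, Snhg1 5th, Snhg12 10th, Zfas1 12th, Gas5 16th and Snhg3 109th. The hosts were chosen for a common pattern, so that their ranks describe how closely they share it. Ralgapa2 differed less than Snhg5 in each comparison, with 0.26 between pollutants and ST vehicle and -0.49 between HFHS and pollutants.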

How the data were processed

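Spot intensity on a linear scale, with its outlier and background flags, was taken as deposited by the authors from 1-colour (Cy3) Agilent arrays; the submitters' processing notes name Agilent Feature Extraction 11.5.1.1 and limma. The authors' deposited table of normalized log2 values was used only as an alternative, and 0 of its sample columns lacked a match. After log2 transformation, replicate spots were averaged and each array was scaled by its 75th percentile (782 to 1354 intensity units); control spots and outlier flags were left out. Between 62.8% and 69.5% of probes were well above background. Kept probes (25030 of 39429) were well above background throughout 1 group or more, and each gene was represented by its brightest kept probe, so the number of arrays, above all the 3 ST vehicle arrays, limits the precision.

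limma 3.58.1 in R 4.3.3 fitted 1 model with 3 groups to 13 arrays; contrasts were two-sided. Every adjusted p (Benjamini-Hochberg over 19514 genes) is limma's, and the model was tested on simulated data. The members and lists were chosen with earlier results of these data known; neighbouring genes, the pyrimidine run minimum and TATAAA were chosen after the values were seen. Named genes were all members, every called gene of the other non-coding hosts, snoRNP and decay lists, up to 4 called genes of smallest p of other lists, up to 3 genes of smallest p where none was called, and the 6 named genes most like Snhg5; some genes that the rule names are not reported here. Probe positions are mm9 from the files; starts and gene names are RefSeq's. Alternatives were background correction, normalization, the deposited table, filters, probe choice, blocks and arrays left out. Another, chosen after seeing the data, was normexp with far low spots raised and flagged outliers left out of its fit.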

Additional observations from a re-analysis of the deposited data

How the results depend on the processing

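The 8 differences between pollutants and ST vehicle and the 8 between HFHS and pollutants kept their sign under all 27 alternatives. Several alternatives left these differences as they were: the filters, the fit to all probes, the 2 groups alone and leaving out arrays of the group not compared. The blocks did not change those between HFHS and pollutants. All alternatives but averaged probes used a gene's brightest probe, so the other Gas5 probes entered only there. Between HFHS and ST vehicle Snhg5 turned to 0.24 with normexp, Snhg12 changed sign in 1 and Snhg3 in 6. Members called between HFHS and pollutants were 8, with 8 without any 1 array, 6 with normexp (Snhg5 at an adjusted p of 0.759 by limma), 7 with median scaling and with averaged probes, 5 without HFHS replicates 3 to 5 (the acinar arrays) and 0 without slide 1. Between pollutants and ST vehicle 5 were called, with 1 to 5 without 1 array, 0 with normexp, 1 with median scaling, with no filter on dim probes and with the 2 groups alone, 2 with slide as a block and without the acinar arrays, and 0 without slide 1; between HFHS and ST vehicle 0 were called throughout. With normexp, 5 spots on HFHS replicates 3 and 4 that lay over 50 units below background went with corrected medians of 378 and 729 on those arrays, and of 180 to 246 on the others. An alternative chosen after seeing the data raised these spots and also left spots flagged as outliers out of the fit. HFHS replicate 5, with 0 spots that far below background, moved from 180.4 to 175.8 there. The medians were then 176 to 246, with 4 members called between pollutants and ST vehicle and 8 between HFHS and pollutants. Snhg5 was at 0.42 and -0.73. All genes called between HFHS and pollutants were 756 (307 higher), with 349 to 712 without 1 array, 284 with normexp (85 higher), 491 with the spots raised, 323 with median scaling, 361 with no filter, 289 without the acinar arrays and 1 without slide 1. Between HFHS and ST vehicle they were 134, with 23 to 140 without 1 array and 45, 68, 55, 4 and 1 under normexp, median scaling, no filter, without acinar arrays and without slide 1, 84 with slide as a block and 25 with 2 groups alone. Between pollutants and ST vehicle they were 192, with 39 to 175 without 1 array and 22, 48, 70, 92 and 3 under those settings, 67 with slide as a block and 40 with 2 groups alone. The causes were not tested, and the changes made together to normexp were not run apart.

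Counts in the gene lists moved as follows between HFHS and pollutants. Ribosomal protein calls numbered 2, with 0 to 2 without 1 array, 4 with slide as a block, 1 with averaged probes and 0 with both normexp settings, quantile normalization, median scaling, the deposited table, no filter, 2 groups alone, without the acinar arrays and without slide 1. TOP factor calls numbered 1, with 0 to 1 without 1 array, 3 with slide as a block, 2 with averaged probes and 0 with both normexp settings, median scaling, the deposited table, no filter and without acinar or slide 1 arrays. Protein-coding hosts numbered 4, with 1 to 4 without 1 array, 2 with quantile normalization, 1 with both normexp settings, the deposited table and no filter, and 0 with median scaling and without acinar or slide 1 arrays; 1 was called between pollutants and ST vehicle with quantile normalization, the deposited table and averaged probes. The calls of Snhg16 and Dhx34 were each lost in several settings (0 called), with 0 to 1 without 1 array (Snhg16's list also between pollutants and ST vehicle), and 1 mTORC1 or Myc gene was called with averaged probes, with 0 to 1 without 1 array.

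The replicate number matched the slide on all arrays but ST vehicle replicate 3, and the main model used neither as a block. Same-numbered arrays correlated from -0.17 to 0.56 in their deviations from the group means. The lowest values, -0.17 and -0.15, were those of ST vehicle replicate 3 with pollutant and HFHS replicate 3. Arrays of the same slide correlated from -0.02 to 0.56, all over 0.1 but HFHS and pollutant replicates 2; ST vehicle replicate 3 lay on slide 5. With the replicate block 53 genes were called between HFHS and ST vehicle, 44 between pollutants and ST vehicle (1 member), and 8 members between HFHS and pollutants.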

Other observations

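Snhg5 and Snhg1 were 2 of 12 genes in which all pollutant arrays lay above all ST vehicle arrays and these above all HFHS arrays. The other named ones, chosen after their values were seen, were Ralgapa2, Igsf8, Itgb3, Pigx, Oas1d and Gm10804, and 4 more had no symbol. Oas1d, of the oligoadenylate synthetase family, was at -0.86 ± 0.13 between HFHS and pollutants (adjusted p = 0.00591 by limma), the immunoglobulin superfamily gene Igsf8 at -0.51 ± 0.08 (adjusted p = 0.00586) and Itgb3, the integrin beta 3 subunit, at -0.30 ± 0.08 (adjusted p = 0.0591). Between pollutants and ST vehicle none of these 6 was called, Gm10804 having the largest difference at 0.99 ± 0.44 (adjusted p = 0.381). The opposite order, HFHS above ST vehicle above pollutants, was found in 8 genes.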
